A study of Mus musculus with 2 samples.

Results

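The potassium channel genes of the E16.5 mouse corticoseptal boundary were taken as every gene whose symbol begins with Kcn and a further letter. The rule found 99 of the 32285 genes counted. Of these, 93 encode channels or their subunits and 6 are noncoding RNAs or a regulator: Kcnq1ot1, Kcnmb4os1, Kcnmb4os2, Kcnd3os, Kcnab3os and Kcnrg. At least 50 UMIs (barcodes that count captured transcripts, 1 each) over the cells of both libraries were required before a gene was described on its own, and 71 members met this. Just inside that limit was Kcnab3os with 52 UMIs and just outside it Kcng3 with 49. Of the 28 members below it, 24 had at least 1 UMI, and Kcna7, Kcna10, Kcnj1 and Kcnk16 had none. A sum of 0 allows a level of up to 0.0323 CPM (UMIs of a gene scaled to 1000000 UMIs) in the Tcf4 cKO library and 0.0324 CPM in the WT library.

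The study dissected the boundary between cortex and septum, the midline region that callosal axons cross, and profiled dissociated single cells with droplet sequencing of transcript 3' ends. One library was made from Tcf4 cKO embryos, of genotype Tcf4f/f;Emx1Cre. There both copies of the transcription factor gene Tcf4 are floxed and Cre is expressed from Emx1, a gene of dorsal telencephalic progenitors. The other came from wild-type embryos (WT), and the labels do not say whether these carried Cre or a floxed allele, nor how many embryos made up a library. With 1 library in each group no test between genotypes exists, and every interval below is a 95% interval for counting error alone.

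Potassium channels let potassium leave or enter cells along its gradient and thereby set the resting potential and end action potentials. Voltage-gated Kv channels open on depolarisation, calcium-activated channels open when calcium rises, two-pore (K2P) channels carry the resting leak, and inward rectifiers (Kir) hold the membrane near the potassium equilibrium. Migrating and newly formed neurons acquire these channels in stages, and radial glia and astrocytes use Kir and K2P channels to keep a negative resting potential. GABAergic neurons of the forebrain arise ventrally, outside the Emx1 lineage for the most part, whereas cortical glutamatergic neurons and dorsal radial glia arise within it.

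The Tcf4 cKO library held 121321247 UMIs and the WT library 116998498. After filtering, 10142 Tcf4 cKO cells with a median of 8152 UMIs and 8634 WT cells with a median of 9660 UMIs remained, so cells were shallower in Tcf4 cKO. The libraries shared 21 cell barcodes. Clusters were named from fixed markers, with potassium channel genes left out of the clustering, and each name stands for cells like that type. Tcf4 cKO held 2239 and WT 1455 glutamatergic neurons, Tcf4 cKO 2910 and WT 2592 GABAergic neurons, and Tcf4 cKO 567 and WT 392 intermediate progenitors. Cycling progenitors numbered 685 in Tcf4 cKO and 504 in WT, and astroglia (the radial glia and astrocyte lineage) 783 in Tcf4 cKO and 738 in WT. Clusters that no marker list named held 27% of Tcf4 cKO and 31.3% of WT cells. Tcf4 itself stood at 1781 CPM in Tcf4 cKO and 2721 CPM in WT glutamatergic neurons, a ratio of 0.654. Its ratio was 0.565 in intermediate progenitors, 0.594 in cycling progenitors, 0.846 in astroglia and 0.903 in GABAergic neurons. The labels do not name the deleted exon, so counts of 3' ends check the deletion only in part.

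All 99 members together took 88707 UMIs in Tcf4 cKO and 88349 UMIs in WT cells, which was 0.095% of the UMIs in each. Kcnq1ot1, a nuclear noncoding RNA made from an intron of Kcnq1, gave 45139 UMIs over both libraries, the most of any member. Kcnk2, the mechanically and lipid gated leak channel TREK-1, came next with 27619 UMIs. Kcnq3, a subunit of the Kv7 channels that carry the M-current, and Kcnh7, a channel of the ERG family, followed with 10596 and 10304 UMIs. Overlapping genes limit some of these sums: 2900042K21Rik lies on the same strand as Kcnk2, 4930469K13Rik on that of Kcnip1 and Gm43847 on that of Kcnd3, and Kcnmb4 and Kcnmb4os2 overlap on opposite strands. Kcnq1ot1 is itself antisense to Kcnq1.

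Within each library, the order of levels over the 5 large classes was compared. Of the 71 members, 54 had their highest level in the same class in Tcf4 cKO and in WT. That class was GABAergic neurons for 24 members, glutamatergic neurons for 20, astroglia for 5, cycling progenitors for 3 and intermediate progenitors for 2. The highest class was not worked out for genes outside the members, so whether these counts differ from genes in general was not tested. In 23 of the 54 the interval of the highest class lay above that of the next class in both libraries, and 14 of those 23 were highest in glutamatergic neurons and 7 in GABAergic neurons. In both libraries, 25 members were at least 2-fold higher in glutamatergic neurons than in astroglia, against 11.4% of the 15873 genes with at least 50 UMIs, and 6 were at least 2-fold lower, against 23.7%. For GABAergic neurons over astroglia, 28 members were higher, against 12.3% of genes, and 9 lower, against 20.4%. With 5 CPM added to both levels, 8 members in place of 25 were at least 2-fold higher in glutamatergic neurons, and 9 in place of 28 in GABAergic neurons. The shares of all genes were not worked out with 5 CPM added.

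**Figure D1:**
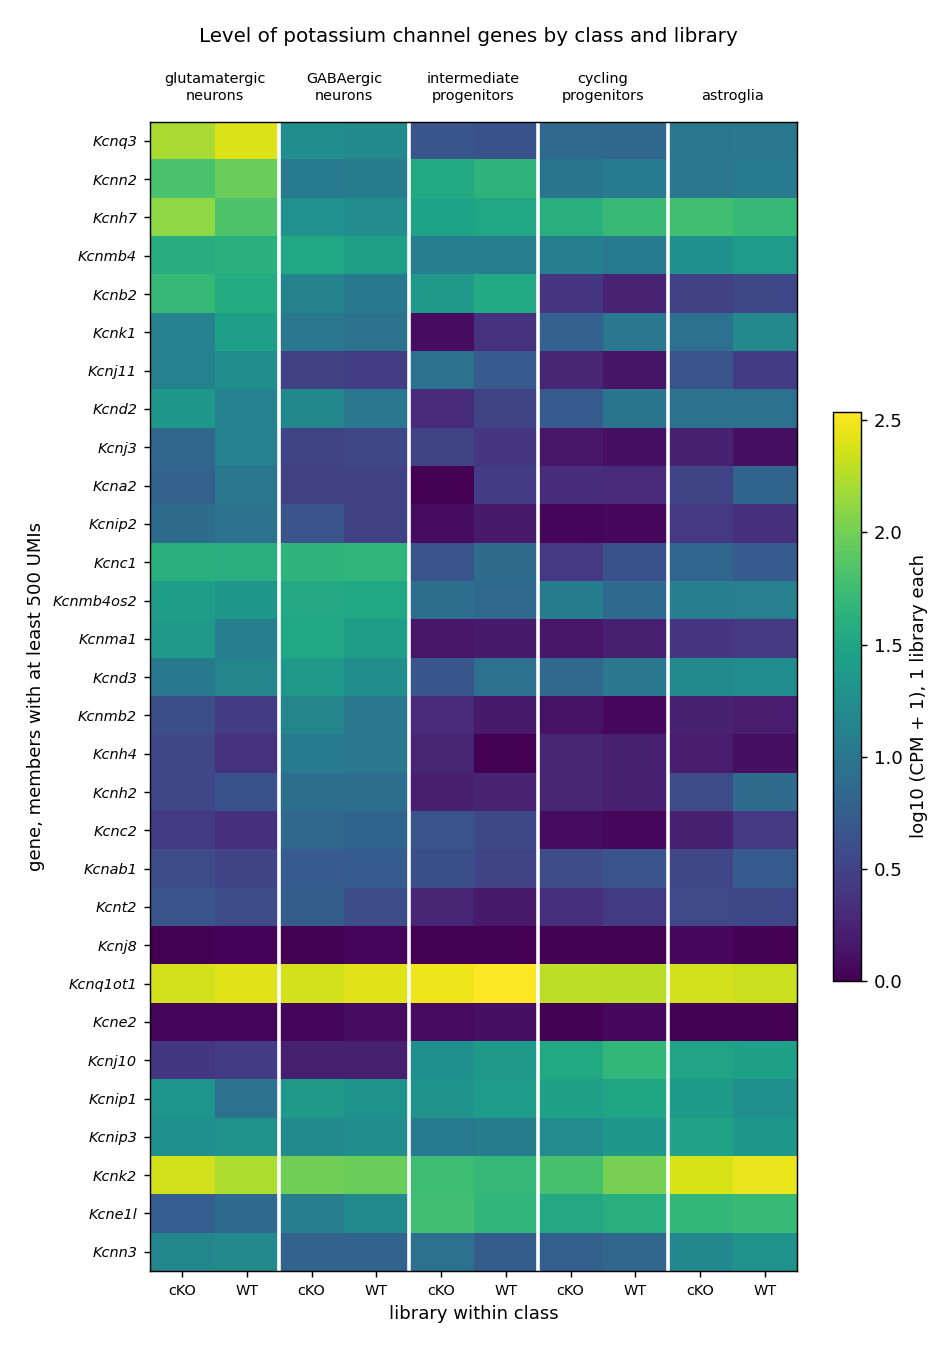
Level of the 30 members with at least 500 UMIs that the text describes (rows, ordered by the class where WT is highest) in the 5 large classes, Tcf4 cKO left of WT in each pair, coloured by log10 of CPM plus 1. Kcnq3 is brightest in glutamatergic neurons, Kcnj10 is bright in the progenitors and astroglia, and Kcnc1 in both neuron classes.

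Voltage-gated subunits of glutamatergic neurons included Kcnq3, with 165 CPM in Tcf4 cKO and 252 CPM in WT glutamatergic neurons. The next class, GABAergic neurons, had 16.7 CPM of Kcnq3 in Tcf4 cKO and 15.1 CPM in WT, so the glutamatergic level was 9.88 times the next in Tcf4 cKO and 16.6 times in WT. Kcnb2, a Kv2 delayed rectifier, had 48.7 CPM in Tcf4 cKO and 35.2 CPM in WT glutamatergic neurons. It had 2.08 CPM in Tcf4 cKO and 2.59 CPM in WT astroglia. In intermediate progenitors it had 22.3 CPM in Tcf4 cKO and 35.0 CPM in WT. Kcnn2, a small-conductance calcium-activated channel, was also highest there in both libraries, with 63.6 CPM in Tcf4 cKO and 89.6 CPM in WT glutamatergic neurons, then 33.8 CPM in Tcf4 cKO and 43.5 CPM in WT in intermediate progenitors. In astroglia it had 9.14 CPM in Tcf4 cKO and 9.81 CPM in WT. Kcnj11, the pore of ATP-sensitive channels, had 12 CPM in Tcf4 cKO and 16.4 CPM in WT glutamatergic neurons. Abcc8, the sulfonylurea receptor that completes this channel in neurons, had 13.7 CPM in Tcf4 cKO and 18.7 CPM in WT glutamatergic neurons and under 2 CPM in each of the other 4 large classes.

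In GABAergic neurons, Kcnc1, a fast Kv3 channel, had 43.8 CPM in Tcf4 cKO and 45.8 CPM in WT, close to its glutamatergic levels of 40.0 CPM in Tcf4 cKO and 38.3 CPM in WT. Kcnd3, a Kv4 channel of the A-type current, had 21.8 CPM in Tcf4 cKO and 16.8 CPM in WT GABAergic neurons. Kcnma1, the pore of the large-conductance calcium-activated BK channel, had 31.4 CPM in Tcf4 cKO and 25.1 CPM in WT. These 3 genes had their highest level in GABAergic neurons in both libraries. Kcnd3 was also present in astroglia, with 15.1 CPM in Tcf4 cKO and 16.2 CPM in WT. Kcnma1 was low outside the neuron classes, with 1.52 CPM in Tcf4 cKO and 1.64 CPM in WT astroglia.

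Members of the glial and progenitor classes were fewer. Kcnj10, the Kir4.1 channel of astrocytes, had 29.2 CPM in Tcf4 cKO and 27.4 CPM in WT astroglia, and 33.9 CPM in Tcf4 cKO and 47.2 CPM in WT in cycling progenitors. It had 0.659 CPM in Tcf4 cKO and 0.674 CPM in WT GABAergic neurons. Kcne1l, a single-pass subunit of the KCNE family, had 58.0 CPM in Tcf4 cKO and 45.5 CPM in WT intermediate progenitors. Its astroglial levels were 47.2 CPM in Tcf4 cKO and 50.4 CPM in WT, while glutamatergic neurons had 4.74 CPM in Tcf4 cKO and 6.75 CPM in WT. Kcnk2 had 243 CPM in Tcf4 cKO and 291 CPM in WT astroglia, the highest of the 5 classes in each library, although in Tcf4 cKO its interval overlapped that of glutamatergic neurons. Kcnip3, a calcium-binding subunit of Kv4 channels also known as the transcriptional repressor DREAM, had 27.8 CPM in Tcf4 cKO and 21.5 CPM in WT astroglia. Kcnab1, a cytoplasmic beta subunit of Kv1 channels, was low everywhere, at 4.31 CPM in Tcf4 cKO and 4.54 CPM in WT GABAergic neurons, its highest class.

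Tcf4 cKO was then set against WT within each class, for members with at least 50 UMIs in it. In glutamatergic neurons, 15 of 49 members were past 1.5-fold, 9 higher and 6 lower in Tcf4 cKO, which is 30.6% against 8.59% of the 11855 genes tested (4.44% higher and 4.15% lower). Members had lower levels than genes in general, with a median of 7.42 CPM against 22.2 CPM, and low sums pass a fold more easily. Among genes with 50 to 500 UMIs, 9 of 29 members were past 1.5-fold, against 721 of 4359 genes. With 500 or more UMIs, 6 of 20 were, against 3.96%. The median log2 ratio of the members was 0.043 and that of all genes -0.011; 25 members lay above 0 and 24 below. The split into 9 higher and 6 lower turned under other settings. It was 5 higher and 8 lower with the clusters that both libraries filled weighted equally, 7 and 9 with doublets kept, and 9 and 10 with the UMI minimum for cells doubled, at cluster resolution 0.5 or with unnamed cells added. It was 8 and 9 with a mitochondrial limit of 5% or with potassium channel genes used for clustering, and 7 and 8 at resolution 2. Here and below, shares of all genes past 1.5-fold were worked out only for the setting reported, not for the alternatives.

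The class was made of different clusters in the libraries. Cluster 7, led by 9130024F11Rik and Rspo3, held 768 of the Tcf4 cKO and 10 of the WT glutamatergic neurons. Cluster 15, led by Cck and Grem1, held 4 of the Tcf4 cKO and 654 of the WT glutamatergic neurons. A cluster drawn almost wholly from 1 library may be that library and not a cell type. Values are therefore also given within cluster 3 (led by Sln; 523 Tcf4 cKO and 493 WT cells), cluster 13 (led by Crym; 588 Tcf4 cKO and 82 WT cells) and cluster 16 (led by Gm28050, with Ebf1; 356 Tcf4 cKO and 216 WT cells), which both libraries filled. Cluster 21 (led by Cyp26b1 and Zfp385b; 192 Tcf4 cKO and 219 WT cells) stayed unnamed but was nearest to this class.

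Kcna1, the Kv1.1 delayed rectifier of axons, had the lowest ratio of the members. It had 2.54 CPM in Tcf4 cKO and 18.3 CPM in WT glutamatergic neurons, a ratio of 0.139 (0.102 to 0.186). It was lower in Tcf4 cKO in all of the shared clusters. Cluster 3 had 2.78 CPM in Tcf4 cKO and 11.8 CPM in WT, and cluster 13 had 2.83 CPM in Tcf4 cKO and 36.1 CPM in WT. Cluster 16 had 1.37 CPM in Tcf4 cKO and 7.02 CPM in WT, and the unnamed cluster 21 had 0.974 CPM in Tcf4 cKO and 12.7 CPM in WT. With each cell thinned to 3000 UMIs, a depth all cells reached, 0.804% of Tcf4 cKO and 4.74% of WT glutamatergic neurons had a Kcna1 UMI. Unthinned, the shares were 2.28% in Tcf4 cKO, at a median of 8649 UMIs, and 15.9% in WT, at 10577 UMIs. In GABAergic neurons, where Kcna1 was near 0, the unthinned shares were 0.241% in Tcf4 cKO, at a median of 7341 UMIs, and 0.116% in WT, at 8281 UMIs. Kcna2, the Kv1.2 partner of Kcna1 in axonal channels, had 5.26 CPM in Tcf4 cKO and 9.02 CPM in WT glutamatergic neurons, a ratio of 0.584 (0.452 to 0.751).

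Kcnk1, the weakly rectifying K2P channel TWIK-1, had 12.2 CPM in Tcf4 cKO and 26.2 CPM in WT glutamatergic neurons, a ratio of 0.467 (0.399 to 0.546). It was lower in Tcf4 cKO in each shared cluster. Cluster 13 had 26.3 CPM in Tcf4 cKO and 73.0 CPM in WT, a ratio of 0.360 (0.282 to 0.461), and the unnamed cluster 21 had 15.6 CPM in Tcf4 cKO and 80.8 CPM in WT. Cluster 3 had 1.11 CPM in Tcf4 cKO and 9.80 CPM in WT. Kcnj3, a Kir3 subunit opened by G protein-coupled receptors, had 5.93 CPM in Tcf4 cKO and 11.9 CPM in WT glutamatergic neurons, a ratio of 0.497 (0.394 to 0.625). Cluster 3 gave a Kcnj3 ratio of 0.239 (0.103 to 0.493), and cluster 13 one of 0.472 (0.307 to 0.741). Kcnj6, a further Kir3 subunit, had 0.909 CPM in Tcf4 cKO and 2.27 CPM in WT.

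Kcnq3 was lower in the class as a whole, with a ratio of 0.654 (0.625 to 0.684), but not in every cluster. It was higher in Tcf4 cKO in cluster 3, at 222 CPM against 185 CPM in WT, and in cluster 16, at 64.3 CPM against 20.6 CPM in WT. It was lower in cluster 13, at 107 CPM in Tcf4 cKO and 135 CPM in WT, and in the unnamed cluster 21, at 125 CPM in Tcf4 cKO and 197 CPM in WT. Cluster 15, nearly all WT, had 359 CPM in its WT cells. With the shared clusters weighted equally in both libraries the Kcnq3 ratio was 1.15. That setting leaves out clusters 7 and 15. Kcnn2, with 0.710 (0.659 to 0.765), and Kcnj11, with 0.728 (0.611 to 0.868), were lower in Tcf4 cKO without passing 1.5-fold.

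Kcnh7, the ERG3 channel, was the most counted member among those higher in Tcf4 cKO. It had 127 CPM in Tcf4 cKO and 66.9 CPM in WT glutamatergic neurons, a ratio of 1.9 (1.77 to 2.04). It was higher in Tcf4 cKO in all of the shared clusters, at 133 CPM against 85.4 CPM in WT in cluster 3, 107 CPM against 35.4 CPM in WT in cluster 13, and 200 CPM against 97.3 CPM in WT in cluster 16. The unnamed cluster 21 had 231 CPM in Tcf4 cKO and 96.1 CPM in WT. Thinned to 3000 UMIs, 29.2% of Tcf4 cKO and 17.1% of WT glutamatergic neurons had a Kcnh7 UMI, against 4.47% of Tcf4 cKO and 4.01% of WT GABAergic neurons. Unthinned, the glutamatergic shares were 57.0% in Tcf4 cKO and 47.3% in WT, and the GABAergic ones 11.1% in Tcf4 cKO and 10.6% in WT.

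Kcnip1, a Kv4 subunit that speeds recovery from inactivation, had 20.5 CPM in Tcf4 cKO and 7.88 CPM in WT glutamatergic neurons, a ratio of 2.60 (2.14 to 3.19). It was higher in Tcf4 cKO in cluster 3, with 14.2 CPM in Tcf4 cKO and 1.96 CPM in WT, whereas cluster 13 had 33.1 CPM in Tcf4 cKO and 31.9 CPM in WT, a ratio of 1.04 (0.753 to 1.46). Kcnd2, the Kv4.2 channel that Kcnip1 binds, had 21.7 CPM in Tcf4 cKO and 12.2 CPM in WT, a ratio of 1.77 (1.5 to 2.1). Its levels in cluster 3 were 26.4 CPM in Tcf4 cKO and 7.84 CPM in WT, and those in cluster 13 were 14.8 CPM in Tcf4 cKO and 14.9 CPM in WT. The cause of these differences between clusters was not tested.

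Kcnma1 had 22.1 CPM in Tcf4 cKO and 11.5 CPM in WT glutamatergic neurons, a ratio of 1.93 (1.63 to 2.30). Among the shared clusters its level was highest in cluster 13, at 52.4 CPM in Tcf4 cKO and 35.4 CPM in WT, a ratio of 1.48 (1.10 to 2.03). Kcnk9, the acid-sensitive leak channel TASK-3, had 3.44 CPM in Tcf4 cKO and 1.25 CPM in WT, a ratio of 2.75 (1.67 to 4.70). Cluster 13 had 7.81 CPM of Kcnk9 in Tcf4 cKO and 0.709 CPM, from 1 UMI, in WT, and cluster 16 had 4.11 CPM in Tcf4 cKO and 8.52 CPM in WT. With the shared clusters weighted equally in both libraries, Kcnip1 (1.48), Kcnma1 (1.45) and Kcnk9 (1.23) were no longer past 1.5-fold, while Kcnh7 (2.02) and Kcnd2 (1.91) were. Kcnh4, Kcnk3 and Kcnmb2 were also past 1.5-fold and higher in Tcf4 cKO, all under 4 CPM in both libraries.

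**Figure D2:**
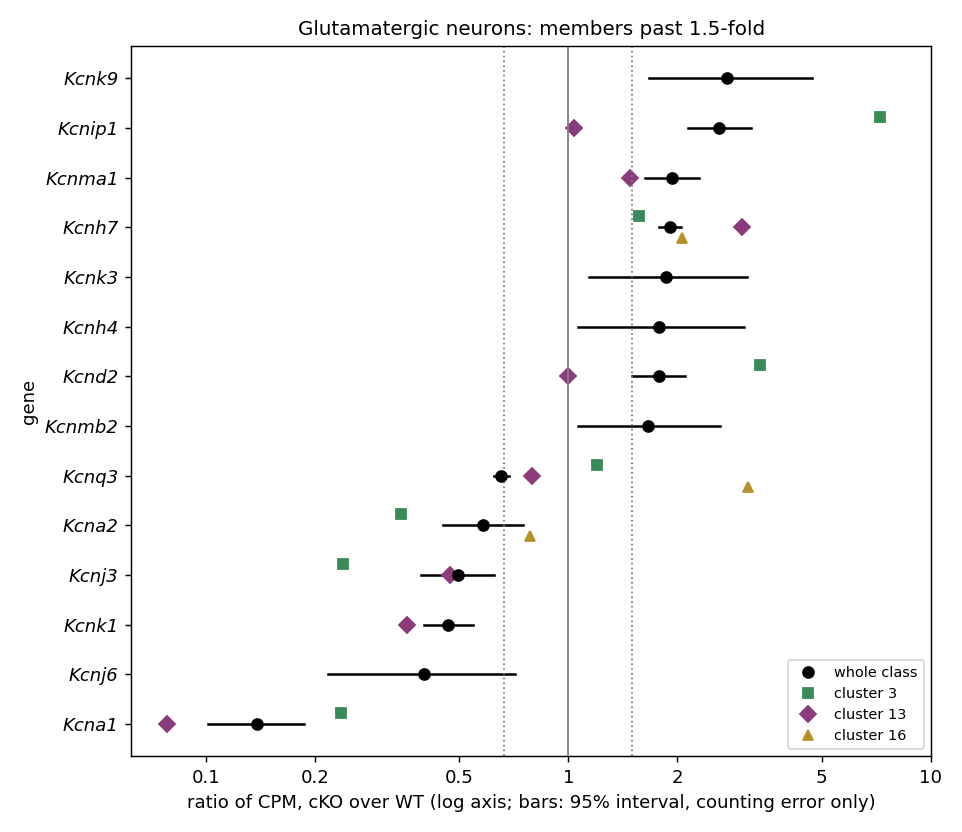
Ratio of CPM, Tcf4 cKO over WT (log axis), for 14 of the members past 1.5-fold in glutamatergic neurons; black points and bars are the whole class with its 95% interval for counting error, coloured points are single clusters with at least 50 UMIs and more than 3 in each library. Kcnh7 lies above 1 and Kcna1 below 1 in every point drawn, while the Kcnq3 points fall on both sides of 1.

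**Figure D3:**
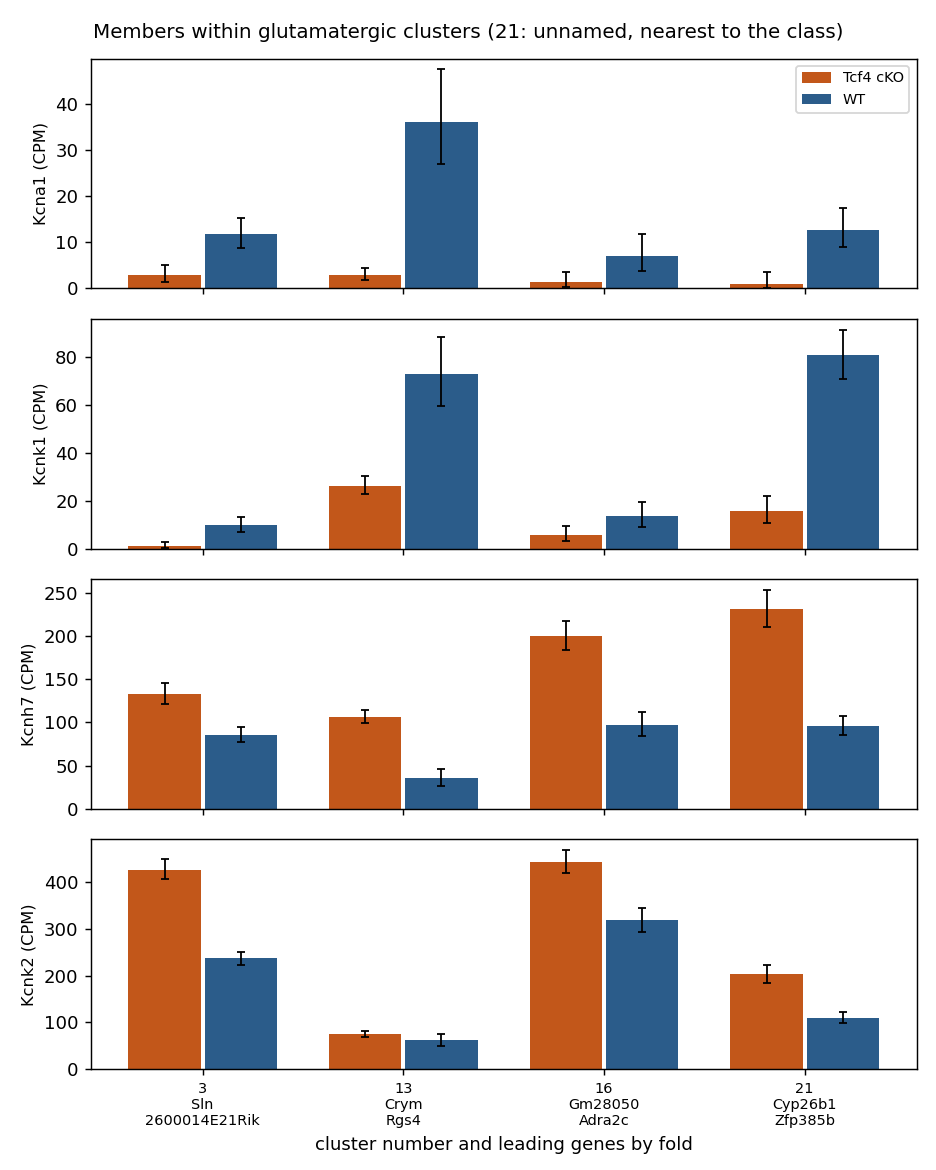
CPM of Kcna1, Kcnk1, Kcnh7 and Kcnk2 in the 3 shared glutamatergic clusters and the unnamed cluster 21, Tcf4 cKO left of WT; bars are sums over cells of 1 library with 95% Poisson intervals. Kcna1 and Kcnk1 are lower and Kcnh7 and Kcnk2 higher in Tcf4 cKO in all 4 clusters.

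Kcnk2 in glutamatergic neurons had 229 CPM in Tcf4 cKO and 166 CPM in WT, a ratio of 1.38 (1.31 to 1.45) that did not pass 1.5-fold. In cluster 3 it had 426 CPM in Tcf4 cKO and 237 CPM in WT, and in cluster 16 it had 442 CPM in Tcf4 cKO and 318 CPM in WT. Cluster 13 was low in both libraries, at 74.7 CPM in Tcf4 cKO and 61.7 CPM in WT. Reads of 2900042K21Rik, which lies on the same strand, cannot be told apart from those of Kcnk2 where the genes overlap.

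Tcf4 protein binds E-boxes, the 6-base motif CANNTG. The windows from 250 bases before to 50 bases after the annotated start were read from RefSeq (GRCm38.p6) for the members, and 49 of the 71 had at least 1. Of the 15 members past 1.5-fold in glutamatergic neurons, 10 were matched and 6 of these held a CANNTG, whose reverse complement is itself of the same form. A member with several windows was counted if any of them held one, and by this count 34 of the 49 matched members did. By single window, 69.6% of the windows of these members held one, against 72.3% of all 32851 windows. The windows of 1 higher and 2 lower members follow as examples. These kept their direction in each shared cluster measured. So did Kcnma1 and Kcnip1 in the shared clusters where they had at least 50 UMIs. Capitals mark CANNTG, and a match says nothing of binding. The window of Kcnh7 is chr2:63184238-63184537 on the minus strand, that of Kcnk1 chr8:125994852-125995151 on the plus strand, and that of Kcnj3 chr2:55435720-55436019 on the plus strand.
Kcnh7: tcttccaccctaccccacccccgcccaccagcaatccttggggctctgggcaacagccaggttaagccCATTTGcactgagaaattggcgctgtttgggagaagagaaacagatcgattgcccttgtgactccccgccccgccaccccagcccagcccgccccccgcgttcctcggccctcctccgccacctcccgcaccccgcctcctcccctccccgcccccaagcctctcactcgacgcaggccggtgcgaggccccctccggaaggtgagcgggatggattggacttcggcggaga
Kcnk1: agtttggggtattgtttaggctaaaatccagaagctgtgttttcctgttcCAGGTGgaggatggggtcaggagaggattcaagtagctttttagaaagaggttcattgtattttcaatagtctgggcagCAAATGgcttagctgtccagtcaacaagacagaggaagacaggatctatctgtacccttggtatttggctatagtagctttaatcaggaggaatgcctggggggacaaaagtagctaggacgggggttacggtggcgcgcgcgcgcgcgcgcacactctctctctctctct
Kcnj3: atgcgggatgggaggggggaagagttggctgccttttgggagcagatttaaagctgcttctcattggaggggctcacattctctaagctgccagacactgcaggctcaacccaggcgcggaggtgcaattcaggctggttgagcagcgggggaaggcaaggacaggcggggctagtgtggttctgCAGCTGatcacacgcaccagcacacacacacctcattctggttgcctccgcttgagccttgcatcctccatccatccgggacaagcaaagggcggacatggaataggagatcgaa
Kcnh7 held CATTTG 182 bases before the start, Kcnk1 held CAGGTG and CAAATG 200 and 121 bases before it, and Kcnj3 held CAGCTG 65 bases before it. The windows of Kcnd2, Kcnma1 and Kcnmb2, also higher in Tcf4 cKO, and those of Kcnj6, lower in Tcf4 cKO, held no CANNTG.

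In GABAergic neurons, 9 of 49 members were past 1.5-fold, all higher in Tcf4 cKO, against 4.74% of the 12527 genes tested (3.26% higher and 1.48% lower). Of these 9, 8 had 50 to 500 UMIs, where 8 of 29 members and 11.5% of genes were past 1.5-fold. The median log2 ratio was 0.151 for the members and 0.007 for all genes. The count fell to 0 with 5 CPM added to both levels and to 1 with cells thinned, where 35 members could be compared. Members lower in Tcf4 cKO appeared with the UMI minimum for cells doubled, at 8 higher and 3 lower, and at cluster resolution 2, at 6 higher and 2 lower. Kcnd2 had 14.3 CPM in Tcf4 cKO and 9.43 CPM in WT, a ratio of 1.52 (1.27 to 1.82). Kcnip2, a Kv4 subunit, had 3.65 CPM in Tcf4 cKO and 2.16 CPM in WT, and Kcnt2, a sodium-activated channel, had 4.62 CPM in Tcf4 cKO and 3.01 CPM in WT. The silent Kv subunit Kcng1, which forms channels only with Kv2 subunits, had 4.09 CPM in Tcf4 cKO and 2.60 CPM in WT. Kcna4, the A-type Kv1.4 channel, had 1.93 CPM in Tcf4 cKO and 0.943 CPM in WT. Kcng2, Kcnip4 and Kcnv1 were also among the 9, each under 3 CPM in both libraries.

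The make-up of the GABAergic class also differed between the libraries, and whether this accounts for the ratios of the members was not tested. Cluster 27, led by Nwd2 and Gbx1, held 155 Tcf4 cKO and 28 WT cells. Kcna4 had 12.97 CPM in Tcf4 cKO and 3.36 CPM in WT in that cluster, the WT value from very few UMIs. It had no more than 3.6 CPM in either library in the other 8 clusters of the class. With clusters of at least 50 cells per library weighted equally, 5 members were past 1.5-fold in place of 9, 3 higher and 2 lower in Tcf4 cKO, the median was 0.021, and Kcna4 was lower in Tcf4 cKO, with a ratio of 0.704. Kcnd2 was highest in cluster 23, led by Tac1, with 63.4 CPM in Tcf4 cKO and 23.1 CPM in WT, a ratio of 2.75 (1.72 to 4.45). In clusters 4, 6 and 8 its ratios were between 0.919 and 1.19.

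Among GABAergic clusters, the levels of some members differed widely in both libraries; the genes in this paragraph were chosen after their values were seen. Kcnmb2, a BK beta subunit that inactivates the channel, had 129.9 CPM in Tcf4 cKO and 87.1 CPM in WT in cluster 26, led by Sst and Npy. In the other 8 clusters it had 5.07 to 16.95 CPM in Tcf4 cKO and 1.49 to 12.6 CPM in WT. Kcnc2, a Kv3 channel, had 54.4 CPM in Tcf4 cKO and 33.8 CPM in WT in the same cluster, and 22 CPM in Tcf4 cKO and 38.2 CPM in WT in cluster 8, led by Lhx8. It had under 3 CPM in both libraries in clusters 0, 4, 6, 9 and 23. Kcnc1 had 238 CPM in Tcf4 cKO and 197 CPM in WT in cluster 31, led by Npas1 and Htr3a, which held 27 Tcf4 cKO and 55 WT cells. Elsewhere in the class it lay between 27.4 and 71.0 CPM in Tcf4 cKO and between 28.6 and 67.5 CPM in WT. Kcnd3 had 43.4 CPM in Tcf4 cKO and 43.5 CPM in WT in cluster 8, a ratio of 0.998 (0.761 to 1.31).

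**Figure D4:**
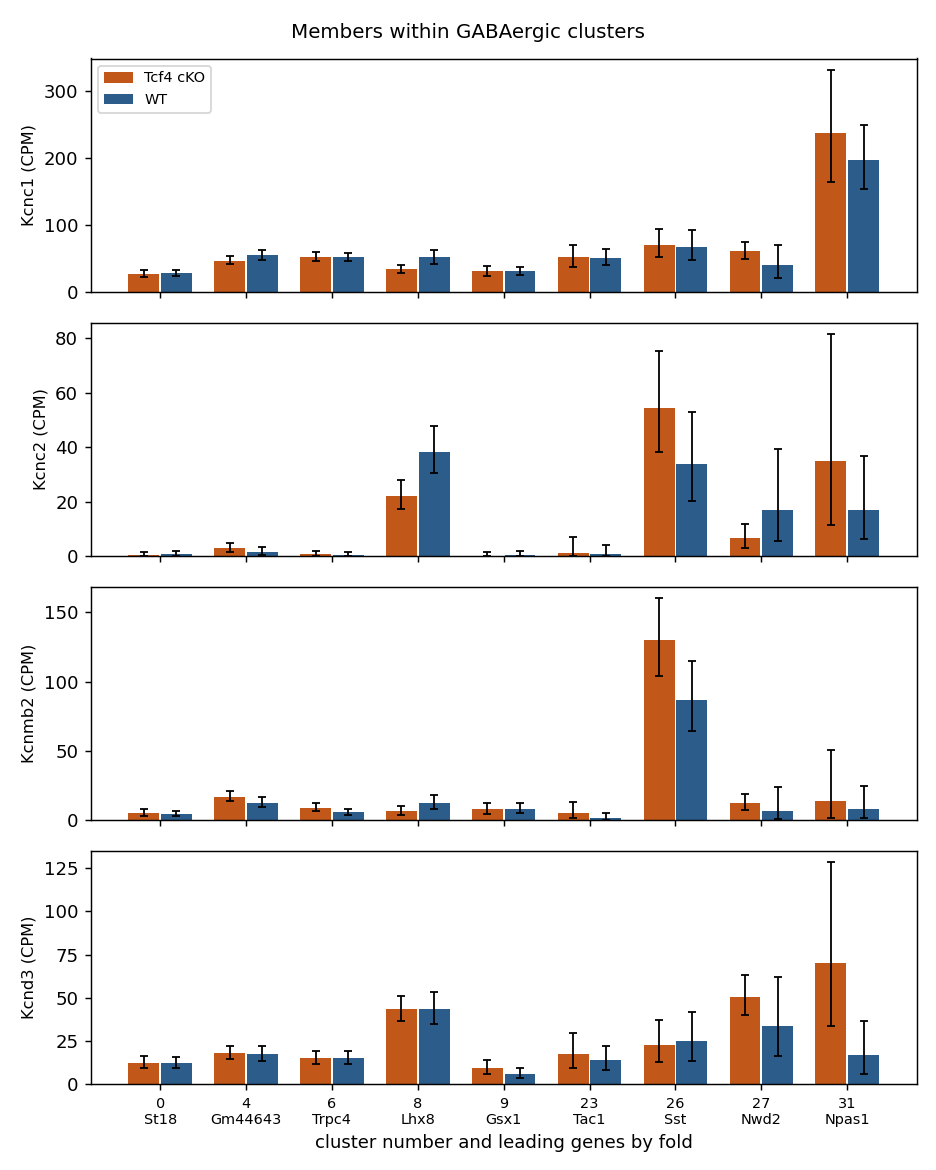
CPM of Kcnc1, Kcnc2, Kcnmb2 and Kcnd3 in the 9 GABAergic clusters, each with its leading gene, Tcf4 cKO left of WT; bars are sums over cells of 1 library with 95% Poisson intervals. Kcnmb2 peaks in the Sst cluster and Kcnc1 in the Npas1 cluster in both libraries.

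In intermediate progenitors, a class made of cluster 5 alone, led by Neurog2, Neurod4 and Eomes, 3 of 16 members were past 1.5-fold, 2 higher and 1 lower in Tcf4 cKO, against 5.6% of the 9247 genes tested (2.6% higher and 3.01% lower). Kcnj11 had 8.07 CPM in Tcf4 cKO and 4.37 CPM in WT, a ratio of 1.84 (1.02 to 3.49). Kcnn3, a small-conductance calcium-activated channel, had 7.43 CPM in Tcf4 cKO and 4.63 CPM in WT, with an interval of the ratio that included 1 (0.885 to 3.01). Kcnb2 had 22.3 CPM in Tcf4 cKO and 35.0 CPM in WT, a ratio of 0.637 (0.489 to 0.828). In cluster 1, which stayed unnamed and lay nearest to intermediate progenitors, Kcnb2 had 59.3 CPM in Tcf4 cKO and 56.8 CPM in WT, so the Kcnb2 difference was not seen there. With the unnamed cells added, the Kcnb2 ratio was 1.01. The Kcnn3 ratio was 0.975 at cluster resolution 2 and 0.987 with potassium channel genes used in the clustering.

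In cycling progenitors, 5 of 20 members were past 1.5-fold, 1 higher and 4 lower in Tcf4 cKO, against 4.73% of the 10812 genes tested (2.03% higher and 2.69% lower). Kcnk2 had 62.5 CPM in Tcf4 cKO and 104 CPM in WT, a ratio of 0.601 (0.538 to 0.670). Its ratio was 0.606 in cluster 14 and 0.596 in cluster 18, the clusters of this class. In the unnamed cycling cluster 20, led by Fgf8, Kcnk2 had 224 CPM in Tcf4 cKO and 199 CPM in WT. In the unnamed cycling cluster 12, led by Gsx2, it had 58.5 CPM in Tcf4 cKO and 53.4 CPM in WT, a ratio of 1.09 (0.893 to 1.34). With unnamed cells added the Kcnk2 ratio was 0.792. Kcnd2 had 4.25 CPM in Tcf4 cKO and 8.64 CPM in WT, a ratio of 0.492 (0.322 to 0.744). Kcnk1 had 5.34 CPM in Tcf4 cKO and 9.30 CPM in WT, whereas in cluster 20 it had 12.3 CPM in Tcf4 cKO and 9.13 CPM in WT, a ratio of 1.35 (0.785 to 2.32). The Kcnk1 ratio of the class was 0.754 with unnamed cells added and 0.809 with cells thinned, neither past 1.5-fold. Kcnmb4os2, a noncoding RNA opposite the BK subunit gene Kcnmb4, was the member higher in Tcf4 cKO, at 10.8 CPM against 6.65 CPM in WT, and reads of the pair can be told apart only by strand. Kcnj10 had a ratio of 0.719 (0.615 to 0.840), short of 1.5-fold.

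In astroglia, 5 of 24 members were past 1.5-fold, 1 higher and 4 lower in Tcf4 cKO, against 7.89% of the 11329 genes tested (2.25% higher and 5.64% lower). Kcnk1 had 7.47 CPM in Tcf4 cKO and 14.6 CPM in WT, a ratio of 0.513 (0.362 to 0.717), and was thus past 1.5-fold and lower in the named classes of glutamatergic neurons, cycling progenitors and astroglia. Kcnh2, the ERG1 channel, had 2.77 CPM in Tcf4 cKO and 6.82 CPM in WT, and Kcna2 had 2.35 CPM in Tcf4 cKO and 5.59 CPM in WT. Among the clusters of this class the Kcnh2 level was highest in cluster 22, led by Scube2, at 12.6 CPM in Tcf4 cKO and 19.4 CPM in WT. That cluster held 88 Tcf4 cKO and 218 WT cells.

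The level of Kcnk2 differed widely between the clusters of astroglia. Cluster 10, led by Ung and Prrx2, had 69.3 CPM in Tcf4 cKO and 124 CPM in WT, a ratio of 0.558 (0.480 to 0.649). Cluster 17, led by Hhip, had 442 CPM in Tcf4 cKO and 429 CPM in WT, a ratio of 1.03 (0.936 to 1.14). Cluster 22 had 652 CPM in Tcf4 cKO and 434 CPM in WT, a ratio of 1.5 (1.35 to 1.67). The class ratio of 0.835 thus combined clusters that lay on both sides of 1. Kcnip3 had 29.3 CPM in Tcf4 cKO and 12.5 CPM in WT in cluster 17, a ratio of 2.34 (1.42 to 4.00), and 25.8 CPM in Tcf4 cKO and 27.9 CPM in WT in cluster 10.

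The 5 small classes, of 24 to 74 cells per library, held several members at levels above those of the large classes; these genes were chosen after their values were seen. In Cajal-Retzius cells, the early reelin-secreting neurons, Kcnh7 had 208 CPM in Tcf4 cKO and 178 CPM in WT, and Kcnmb2 had 68.5 CPM in Tcf4 cKO and 46.6 CPM in WT. In oligodendrocyte progenitors, Kcnd2 had 169 CPM in Tcf4 cKO and 145 CPM in WT, and Kcnip3 had 82.2 CPM in Tcf4 cKO and 65.8 CPM in WT. The Kv4 channel Kcnd3 joined them there, with 58.0 CPM in Tcf4 cKO and 48.3 CPM in WT. In the endothelial cluster, which also carried the mural markers Rgs5, Higd1b and Vtn, Kcnj8, the Kir6.1 pore of vascular ATP-sensitive channels, had 288 CPM in Tcf4 cKO and 265 CPM in WT. Abcc9, the receptor subunit it pairs with, had 285 CPM in Tcf4 cKO and 267 CPM in WT there. In ependymal or choroid plexus cells, Kcne2 had 577 CPM in Tcf4 cKO and 620 CPM in WT, and Kcnj13, the Kir7.1 channel of this epithelium, had 195 CPM in Tcf4 cKO and 262 CPM in WT. Kcne2 and Kcnj8 had under 0.3 CPM in each of the 5 large classes in both libraries. Microglia held 207 member UMIs in Tcf4 cKO and 212 in WT, with Kcnk12 at 21.1 CPM (10.5 to 37.8) in Tcf4 cKO and 11.2 CPM (4.11 to 24.4) in WT.

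**Figure D5:**
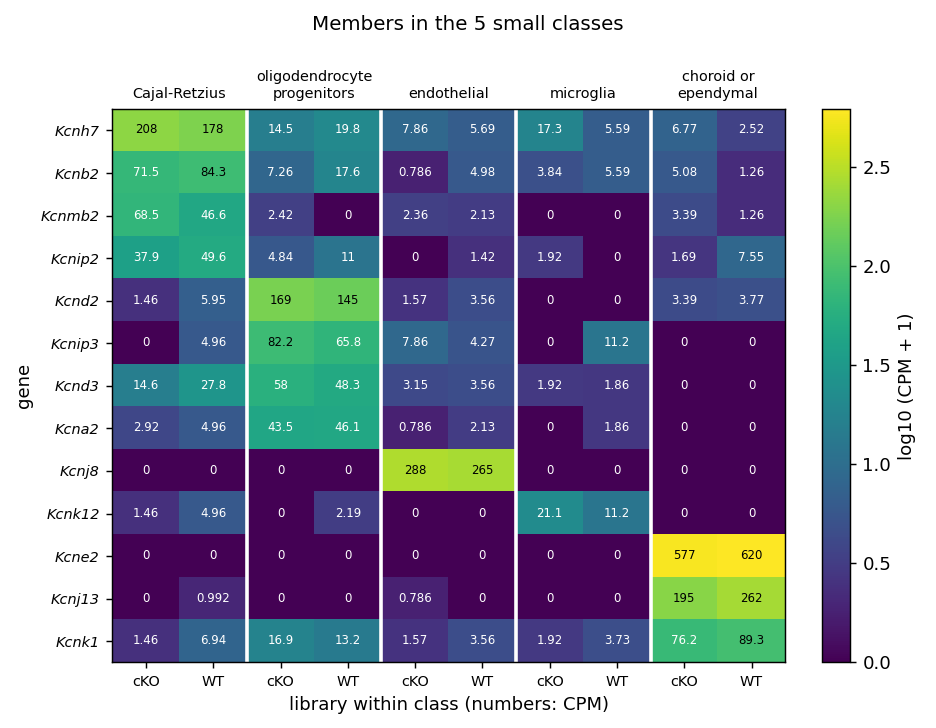
CPM of 13 members (printed numbers; colour is log10 of CPM plus 1) in the 5 small classes, Tcf4 cKO left of WT in each pair. Kcne2 and Kcnj13 stand out in choroid or ependymal cells, Kcnj8 in endothelial cells and Kcnd2 in oligodendrocyte progenitors, in both libraries.

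Genes that work with these channels but lie outside the symbol rule were counted the same way. Their lists were chosen with earlier results of these data known, so shares beside those of all genes are no test of enrichment. Values in this and the next paragraph are for whole classes. Glutamatergic clusters 7 and 15 each came almost wholly from 1 library. Of 15 listed channel partners, 9 could be compared in glutamatergic neurons, and 5 were past 1.5-fold and higher in Tcf4 cKO, against 4.44% of all genes tested there. The most counted were Cntnap2, which clusters Kv1 channels on axons, at 32.5 CPM in Tcf4 cKO and 19.1 CPM in WT, and Lgi1, a secreted protein tied to Kv1 function, at 19.9 CPM in Tcf4 cKO and 7.65 CPM in WT. In GABAergic neurons 3 of 9 were past 1.5-fold and higher in Tcf4 cKO, against 3.26% of all genes tested there, among them Lgi1 at 8.09 CPM in Tcf4 cKO and 5.30 CPM in WT, and Lrrc55, a BK gamma subunit, at 5.67 CPM in Tcf4 cKO and 3.46 CPM in WT. None of 3 in astroglia, against 7.89% of genes, and 1 of 2 in cycling progenitors, against 4.73% of genes, were past 1.5-fold in either direction. The cycling progenitor gene was Cntnap2, at 8.18 CPM in Tcf4 cKO and 12.8 CPM in WT.

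Of 12 listed pumps and cotransporters of potassium, Atp1b1, a sodium-potassium pump subunit, had 146 CPM in Tcf4 cKO and 45.2 CPM in WT glutamatergic neurons, the 1 past 1.5-fold of 10 compared. In GABAergic neurons Atp1b1 had 132 CPM in Tcf4 cKO and 134 CPM in WT, and in astroglia 56.6 CPM in Tcf4 cKO and 94.9 CPM in WT. In intermediate progenitors the chloride importer Slc12a2 had 38.9 CPM in Tcf4 cKO and 24.4 CPM in WT, and Slc12a9 had 8.49 CPM in Tcf4 cKO and 13.6 CPM in WT.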

How the data were processed

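Droplet single-cell RNA libraries of the E16.5 corticoseptal boundary were used, 1 per genotype. The authors deposited unnormalized UMI counts per gene and barcode, empty droplets included. Per the file headers the counter was Cell Ranger 7.1.0, while version 2.1.1 and the build mm10 stand in the submitters' processing notes. The intron setting is not given in the sources used here. Gene positions came from GENCODE vM21.

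Cells needed a UMI total of at least percentile 99 of the 5000 largest totals divided by 10 (3341 UMIs in Tcf4 cKO, 3348 in WT), 500 genes and at most 10% mitochondrial UMIs. Doublets called by scrublet at an expected rate of 6% were removed (526 in Tcf4 cKO, 330 in WT). Cells were clustered jointly (scanpy 1.11.5, leidenalg 0.10.2) on 2000 variable genes, 30 components, 15 neighbours and resolution 1, without potassium channel genes. A class needed at least 3 markers and a score 1.5 times the next. A Cajal-Retzius call with no marker among the 10 leading genes stayed unnamed, a rule set after the data were seen. Free RNA, from droplets of 10 to 100 UMIs, was estimated at 1.19% of a Tcf4 cKO and 2.27% of a WT neuron's UMIs.

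UMIs were summed per class and library. Intervals are at 95%: exact Poisson for a level in CPM, exact conditional binomial for a ratio of Tcf4 cKO to WT, Clopper-Pearson for a share; log2 medians add 0.5 UMIs. The ratio calculation was tested on simulated sums that held counting error only. That test says nothing of variation between cells or libraries, or of class make-up. Values were given for the 3 highest members per class, up to 6 higher and 6 lower past 1.5-fold ranked by the interval bound nearest to 1, the most counted member of each subfamily, and members past 1.5-fold in opposite directions; a few genes these rules name are not reported here. Members and lists were chosen with earlier results of these data known. Alternatives concerned scaling, filters, pseudocount, cell calling, clustering, unnamed cells, free RNA, depth and class make-up.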

Additional observations from a re-analysis of the deposited data

Results flagged for a closer look

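Kcnd2 was past 1.5-fold in opposite directions in neurons and in cycling progenitors; with 1 library per genotype the difference between classes was not tested. The Kcnd2 ratio of Tcf4 cKO over WT was 1.77 in glutamatergic neurons, 1.52 in GABAergic neurons and 0.492 in cycling progenitors. Neuron clusters were not uniform. Kcnd2 was past 1.5-fold and higher in Tcf4 cKO in glutamatergic cluster 3 and GABAergic cluster 23. It was not past 1.5-fold in glutamatergic cluster 13 or in GABAergic clusters 4, 6 and 8. In the unnamed cycling cluster 20, Kcnd2 had 13.7 CPM in Tcf4 cKO and 6.56 CPM in WT, so it was higher in Tcf4 cKO there. In cycling progenitors Kcnd2 stayed under 9 CPM in both libraries.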

How the results depend on the processing

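No paired analysis was possible because each group has 1 library, and for the same reason no replicate could be left out. Under 14 alternatives, 150 of 179 recomputed counts and medians stayed within 1.5 times the value reported or, for medians, within its spread. Of 26 gene ratios, 22 never reversed, and 6 were past 1.5-fold in every setting: Kcna1, Kcnd2, Kcnh7, Kcnj3 and Kcnk1 in glutamatergic neurons and Kcnk1 in astroglia. Of 364 recomputed gene ratios, 318 stayed within the counting interval of the ratio reported, 41 moved out of it and 5 reversed. That interval is wide for low sums. Kcnip2 in GABAergic neurons stayed within it in all 14 alternatives, at ratios of 1.209 to 2.143. Kcnk1 in glutamatergic neurons moved out of it in 9 of 14, with ratios of 0.3147 to 0.5525 over all 14. The settings of at least 20 UMIs and of no UMI filter do not enter a gene's ratio. Under them each ratio was the one reported by design, so these settings checked nothing for single genes. They are counted among the ratios that stayed. The reversals were Kcnq3 in glutamatergic neurons (1.155) and Kcna4 in GABAergic neurons (0.704) with shared clusters weighted equally, Kcnn3 in intermediate progenitors at resolution 2 (0.9748) and with potassium channel genes in the clustering (0.9869), and Kcnb2 in intermediate progenitors with unnamed cells added (1.013).

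Counts past 1.5-fold depended on the filter and on the value added to low levels. Shares of all genes were not worked out under the alternatives. The counts in this paragraph therefore do not show whether members differ from genes in general. With no UMI filter they were 37 in place of 15 in glutamatergic neurons, 37 in place of 9 in GABAergic neurons, 38 in place of 3 in intermediate progenitors, 39 in place of 5 in cycling progenitors and 40 in place of 5 in astroglia. With at least 20 UMIs they were 15 in GABAergic neurons, 6 in intermediate progenitors, 9 in cycling progenitors and 10 in astroglia. With 5 CPM added to both levels they were 8 in glutamatergic neurons, 0 in GABAergic neurons, 0 in intermediate progenitors, 1 in cycling progenitors and 2 in astroglia. With cells thinned they were 1 in GABAergic neurons, 1 in cycling progenitors and 2 in astroglia, with fewer members left to compare. Shared clusters weighted equally gave 5 in GABAergic neurons, with a median of 0.021 in place of 0.151. In intermediate progenitors, a doubled UMI minimum gave 5, doublets kept gave 5 and unnamed cells added gave 9, and thinning moved the median to -0.385 in place of -0.161. In cycling progenitors, doublets kept, resolution 0.5 and unnamed cells added each gave 3. With 5 CPM added, 8 members in place of 25 were 2-fold higher in glutamatergic neurons than astroglia, and 9 in place of 28 in GABAergic neurons, where thinning gave 18. Adding 5 CPM to both levels draws every ratio towards 1, most of all at low levels. The filter and the thinning change how many members are compared. For the other settings the cause was not tested. Of 70 medians, 8 changed sign. Members under about 5 CPM are limited by counting.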
